A study of Mus musculus with 29 samples.

Results

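The 8 genes Il2rb, Il2rg, Il7r, Il21r, Il15ra, Il15, Jak3 and Stat5a encode receptor chains, a cytokine, a kinase and a transcription factor of the common gamma chain cytokine pathway. They were chosen by symbol from the 24421 genes of the deposited count table, and all 8 were found in it. Their levels were measured by bulk RNA-seq of peritoneum in 29 female C57BL/6J mice, 1 library per mouse, aged 5 to 6 weeks at the start. Every mouse had been injected intraperitoneally (IP) on day 0 with YTN16, a mouse gastric cancer cell line, so no group was free of the injection itself. Peritoneum with any nodules on it was taken on day 21 (3wk) or on day 35 (5wk).

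At 3wk there were 5 untreated mice, which received PBS, and 5 dual ICI mice, which received anti-PD1 at 10 mg/kg and anti-CTLA4 at 5 mg/kg in 3 IP injections from day 5 to day 12. At 5wk there were 5 untreated mice, 5 anti-PD1 mice, 4 anti-CTLA4 mice and 5 dual ICI mice, with the same doses in 5 injections from day 5 to day 28. A further anti-CTLA4 mouse died before autopsy. The dual ICI mice at 5wk were divided by outcome into dual ICI-uncured (mice 1 and 5) and dual ICI-cured (mice 2, 3 and 4), which gives 7 groups. The outcome is not in the labels of the libraries, and was read from the mouse numbers in the study's text. The comparison over all 5 dual ICI mice, which needs no outcome, is therefore given too. In the anti-PD1 group 1 mouse was described as cured, without a number that ties it to a library, so that group mixes outcomes. The 3wk and 5wk libraries belong to separate runs of the experiment, so time and run cannot be told apart.

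The common gamma chain, encoded by Il2rg, is a subunit shared by the receptors of IL-2, IL-4, IL-7, IL-9, IL-15 and IL-21. Each receptor pairs it with chains of its own: Il2rb in the IL-2 and IL-15 receptors, Il7r in the IL-7 receptor, Il21r in the IL-21 receptor, and Il15ra, which binds IL-15 and presents it to neighbouring cells. The tyrosine kinase JAK3 is bound to the gamma chain and JAK1 to the partner chain, and together they phosphorylate STAT proteins, of which STAT5A and STAT5B carry most of the signal of IL-2, IL-7 and IL-15. The pathway is required for the development and survival of T cells and NK cells, and its loss causes severe combined immunodeficiency.

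Stretches of DNA upstream of RefSeq starts are shown for the 3 receptor genes whose RefSeq window held a searched motif. RefSeq promoter windows (GRCm38.p6, the assembly called mm10 in the labels) were given for 6 of the 8 genes, all but Il2rb and Il15, in 8 windows since Il15ra and Stat5a have 2 starts each. The 250 bases before each start were searched on both strands for TTCNNNGAA, the core bound by STAT5, and for TGTGGT, the core bound by RUNX factors. The interferon response element (GAAA on either side of any 2 bases) and CCGGAAGT, an ETS site, were searched as well. No letters of these motifs coincided within these 8 windows. Capitals mark the motif, and a match is only a description of the letters.
Il2rg upstream, chrX:101268256-101268505, minus strand, TGTGGT in capitals: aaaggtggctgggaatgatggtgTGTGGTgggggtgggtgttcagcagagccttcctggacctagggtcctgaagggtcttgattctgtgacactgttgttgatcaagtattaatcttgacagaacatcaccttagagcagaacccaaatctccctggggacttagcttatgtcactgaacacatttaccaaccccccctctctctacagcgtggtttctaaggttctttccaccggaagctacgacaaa
Il21r upstream, chr7:125603179-125603428, plus strand, the reverse complement of TGTGGT in capitals: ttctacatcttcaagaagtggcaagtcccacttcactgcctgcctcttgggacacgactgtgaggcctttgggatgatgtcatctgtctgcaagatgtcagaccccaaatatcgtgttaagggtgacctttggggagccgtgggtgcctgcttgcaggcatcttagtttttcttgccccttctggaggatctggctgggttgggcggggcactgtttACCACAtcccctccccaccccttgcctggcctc
Il7r site, chr15:9530000-9530028, minus strand, TTCNNNGAA in capitals: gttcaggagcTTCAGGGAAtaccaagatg
The Il7r site lay 142 bases before the RefSeq start, and 1 of the 8 windows held this motif, against 7.02% of all 32851 RefSeq windows. In GENCODE, Il7r on the minus strand begins further out, at 9530176. The site is therefore upstream of the RefSeq start only, and lies inside the gene as GENCODE draws it. TGTGGT was held by 2 of the 8 windows, 227 bases before the start of Il2rg and 33 bases before that of Il21r, against 14.0% of all windows. The interferon response element (2.98% of all windows) and CCGGAAGT (2.88%) were held by 0 of the 8.

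The libraries held between 25989217 and 31219650 counts each. CPM denotes the level of a gene, its count as a rate on the TMM-scaled library size. Differences are given as log2 fold changes from edgeR's quasi-likelihood test, with p-values adjusted by Benjamini-Hochberg over all genes tested and a call at an adjusted p under 0.05. That test gives no standard error. The one printed is the size of the log2 fold change over the square root of the test's F statistic, so it holds no information beyond the test. The tumor markers, 12 genes of gastric epithelium, summed to between 10.7 and 47.7 CPM in the cured mice and to between 810 and 2650 CPM in untreated mice at 5wk. Its gene Tff2, a trefoil factor of the stomach, held at most 3 counts in a cured library and between 187 and 2761 in untreated mice at 5wk. The skeletal muscle list summed to between 377788 and 420901 CPM in the cured mice, against 65591 to 322850 CPM in untreated mice at 5wk. Anti-PD1 mouse 5 stood apart from the other anti-PD1 mice on the side of the cured mice, with 33.7 CPM for gastric epithelium and 391799 CPM for muscle. Untreated mouse 2 at 5wk had the lowest gastric epithelium sum (810 CPM) and the highest muscle sum (322850 CPM) of its group. In tissue RNA, fewer cells that express a gene and less of its RNA per cell cannot be told apart.

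The 4 receptor chains Il2rg, Il2rb, Il7r and Il21r fell in the cured mice at 5wk relative to untreated mice, as did Jak3, while Il15 and Il15ra rose. Thus 7 of the 8 genes were called in that comparison, against 44.7% of all 15816 genes tested, and the groups did not overlap in any of the 8 genes, as for 47.3% of all genes. Between uncured and cured mice all 8 genes were called, 5 higher and 3 lower in the uncured mice, against 70.0% of 15796 genes tested, and all 8 did not overlap, as for 81.1% of all genes. DESeq2 called 7 of the 8 in each of these comparisons, all but Stat5a. Over all genes with an adjusted p it called 7994 of 17965 in cured against untreated mice. In uncured against cured mice it called 10913 of 18026.

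Fewer differences were found where the cured mice did not form a group of their own. At 3wk, 0 of the 8 genes were called between dual ICI and untreated mice by edgeR (0.574% of 15503 genes tested), although Il2rg, Il2rb and Il21r did not overlap between the groups, as 3.23% of all genes did not. These 3 genes had an unadjusted p under 0.05, as had 10.7% of all genes. DESeq2 called the same 3, and 492 of the 16887 genes to which it gave an adjusted p. In uncured against untreated mice at 5wk, 0 of the 8 were called (0.0% of 16156 genes, by DESeq2 0 of the 8 as well and 17 of 15690 genes). Of the 8 genes, 3 had an unadjusted p under 0.05 (4.87% of all genes), and 4 did not overlap between the groups (17.6% of all genes). With all 5 dual ICI mice against untreated mice at 5wk, 0 were called by edgeR or DESeq2 (0.0% of 15588 genes by edgeR, 45 of 17409 by DESeq2). Of the 8 genes, 1 had an unadjusted p under 0.05 (6.87% of all genes). That group pools cured with uncured mice, which lay on opposite sides of the untreated range for Il2rg, Il2rb, Il7r and Il21r. The comparisons at 5wk share the 5 untreated mice, so their values are not independent of each other.

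**Figure D1:**
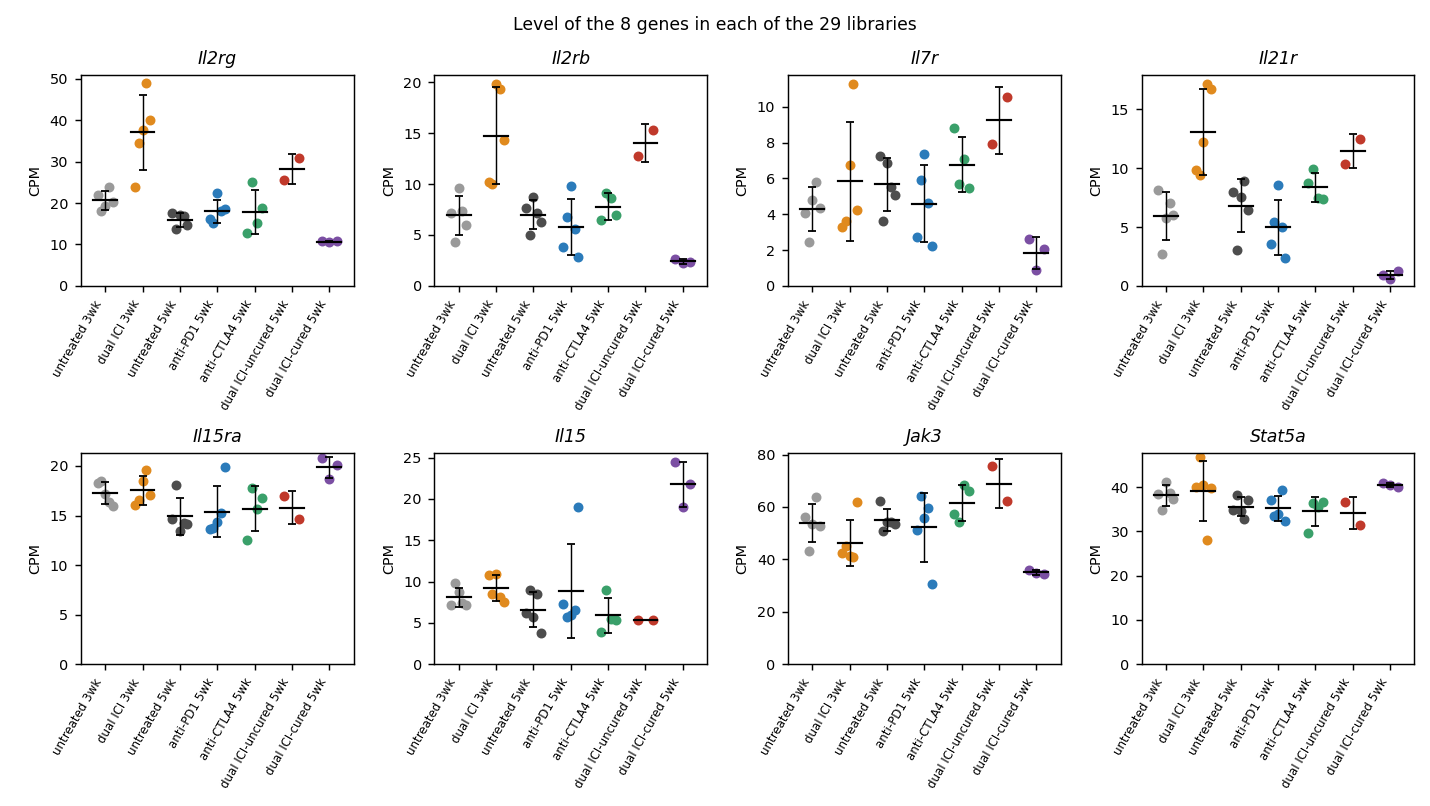
Level of each of the 8 genes in CPM (linear axis from 0) in the 29 libraries by group. Points are mice, horizontal bars group means and error bars the SD, and the 3 cured mice lie below every untreated mouse at 5wk for Il2rg, Il2rb, Il7r, Il21r and Jak3 and above every one for Il15, Il15ra and Stat5a.

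**Figure D2:**
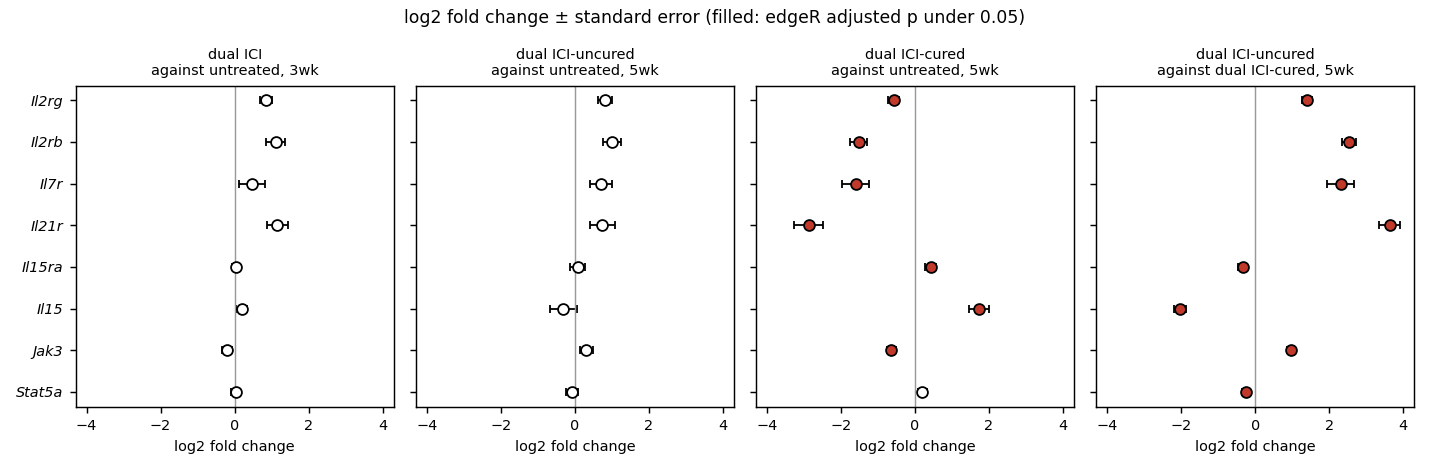
log2 fold change with its standard error (horizontal bars) of the 8 genes in 4 comparisons, with filled points for an edgeR adjusted p under 0.05. In the 2 comparisons without cured mice 0 of 8 points are filled, and with cured mice 7 and 8 of 8.

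Per kilobase of exon, Jak3 (9.84 CPM per kb as the mean over the 29 libraries) and Il2rg (8.94) had the highest levels of the 8 genes, followed by Stat5a (5.16), Il15 (4.02), Il15ra (3.72), Il21r (2.21), Il2rb (1.92) and Il7r (1.13). The spread across libraries was ordered otherwise. The highest library exceeded the lowest 29.0-fold for Il21r, 12.7-fold for Il7r, 8.78-fold for Il2rb, 6.52-fold for Il15 and 4.66-fold for Il2rg. It exceeded it 2.48-fold for Jak3, 1.67-fold for Stat5a and 1.65-fold for Il15ra. Il21r, Il2rb and Il7r were thus the lowest of the 8 genes in level per length and the most variable, while Stat5a and Il15ra varied least across the study.

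Il2rg (chromosome X, 101264378 to 101268255, GRCm38), the common gamma chain itself, was measured at 3wk at 21.8, 18.0, 19.4, 23.9 and 20.4 CPM in the 5 untreated mice. In the 5 dual ICI mice it was 23.9, 34.5, 37.6, 49.1 and 40.1 CPM. Dual ICI mouse 1 only just exceeded the highest untreated mouse, and the other 4 lay well above it. The log2 fold change was 0.85 ± 0.17 (standard error, edgeR adjusted p = 0.0585). By DESeq2 it was called (adjusted p = 0.000911), as did edgeR fitted on all 29 libraries (0.0129) or without dual ICI mouse 1 (0.0176), and over all alternatives the adjusted p lay between 0.000911 and 0.162. At 5wk, Il2rg was 17.6, 13.7, 17.0, 17.0 and 14.7 CPM in untreated mice. It was 25.7 and 30.8 CPM in the uncured mice and 10.7, 10.5 and 10.7 CPM in the cured mice. The uncured mice were above and the cured mice below the whole untreated range, and the cured mice were almost identical to each other. Against untreated mice, Il2rg had a log2 fold change of 0.81 ± 0.18 in the uncured mice (edgeR adjusted p = 0.734, unadjusted p = 0.00148), and in the cured mice it fell by 0.58 ± 0.14 on the log2 scale (edgeR adjusted p = 0.0111). Between uncured and cured mice the log2 fold change was 1.39 ± 0.13 (edgeR adjusted p = 2.27e-05). Its reads may include some of Gm20489, which overlaps it on the same strand in GENCODE and has no row of its own in the table.

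Il2rb (chromosome 15, 78479256 to 78495271), the signalling chain that the IL-2 and IL-15 receptors share, was measured at 3wk at 7.20, 4.33, 9.65, 7.39 and 5.96 CPM in untreated mice. In dual ICI mice it was 10.2, 9.98, 19.9, 19.4 and 14.4 CPM. The groups did not overlap, although dual ICI mice 1 and 2 were close to untreated mouse 3. The log2 fold change was 1.10 ± 0.26 with an edgeR adjusted p of 0.0973, and the alternatives gave adjusted p-values from 0.00382 with DESeq2, which called it, to 0.271. At 5wk, the untreated mice had 7.68, 4.99, 8.76, 7.16 and 6.25 CPM. The uncured mice had 12.7 and 15.3 CPM and the cured mice 2.68, 2.26 and 2.29 CPM. The level in the uncured mice was about that of dual ICI mice at 3wk, whose range contains it, and the cured mice had the lowest mean of the 7 groups. Against untreated mice the log2 fold change was 1.00 ± 0.24 in the uncured mice (edgeR adjusted p = 0.734, unadjusted p = 0.0026), and Il2rb fell by 1.52 ± 0.23 on the log2 scale in the cured mice (edgeR adjusted p = 0.001). Between uncured and cured mice the log2 fold change was 2.53 ± 0.19 (edgeR adjusted p = 6.56e-06).

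Il7r (chromosome 15, 9505788 to 9530176), the IL-7 receptor chain found on naive and memory T cells, was measured at 3wk at 4.09, 2.44, 4.79, 5.78 and 4.37 CPM in untreated mice. In dual ICI mice it was 3.30, 3.65, 6.75, 11.3 and 4.26 CPM. Only dual ICI mice 3 and 4 exceeded the untreated range, and the log2 fold change of 0.46 ± 0.35 (edgeR adjusted p = 0.723) was 0.06 without dual ICI mouse 4. At 5wk, the untreated mice had 7.26, 3.61, 6.85, 5.53 and 5.08 CPM. The uncured mice had 7.94 and 10.6 CPM and the cured mice 2.63, 0.886 and 2.05 CPM. The 3 groups did not overlap. In the cured mice Il7r fell by 1.6 ± 0.37 on the log2 scale relative to untreated mice (edgeR adjusted p = 0.00738), and between uncured and cured mice the log2 fold change was 2.31 ± 0.36 (edgeR adjusted p = 0.000488). In the uncured against untreated mice it was 0.70 ± 0.29 (edgeR adjusted p = 0.734, unadjusted p = 0.0398).

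Il21r (chromosome 7, 125603429 to 125633570), the receptor of a cytokine of helper T cells that acts on B cells, T cells and NK cells, was measured at 3wk at 8.18, 2.71, 5.73, 7.05 and 6.00 CPM in untreated mice. In dual ICI mice it was 9.87, 9.46, 12.3, 17.1 and 16.7 CPM. All 5 dual ICI mice exceeded all untreated mice, with a log2 fold change of 1.15 ± 0.28 (edgeR adjusted p = 0.114, and 0.00564 from DESeq2, which called it). At 5wk, the untreated mice had 7.97, 3.09, 7.59, 8.91 and 6.43 CPM. The uncured mice had 10.4 and 12.5 CPM and the cured mice 0.928, 0.591 and 1.22 CPM. The cured mice held between 12 and 25 counts of Il21r per library, against 76 to 279 in the untreated mice, so their values carry more counting error than the others. The fall in the cured mice relative to untreated mice, by 2.88 ± 0.40 on the log2 scale (edgeR adjusted p = 0.000619), was the largest of the 8 genes. In uncured against untreated mice the log2 fold change was 0.75 ± 0.35 (edgeR adjusted p = 0.734), and between uncured and cured mice it was 3.63 ± 0.28 (edgeR adjusted p = 7.24e-06).

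Markers of T cells, and of other cell types, moved with these 4 receptor genes. At 3wk the T cell list (8 genes, among them Cd3d, Cd3e and Cd3g) summed to between 14.5 and 26.7 CPM in untreated and between 37.6 and 59.8 CPM in dual ICI mice, with 8 of its 8 genes higher and 2 called. At 5wk it summed to between 16.6 and 27.8 CPM in untreated, to 39.7 and 40.1 CPM in uncured and to between 12.1 and 15.0 CPM in cured mice. Across the 29 libraries, Pearson's r of log2 levels with this list was 0.89 for Il2rb, 0.87 for Il2rg, 0.78 for Il21r and 0.59 for Il7r, and after the group means were taken out it was 0.69, 0.61, 0.58 and 0.57. The libraries share groups and tissue make-up, so these values only describe the samples. Other lists followed the receptors as closely. For Il7r, r was 0.88 with the neutrophil list, 0.81 with gastric epithelium and -0.81 with muscle, and for Il21r it was 0.89 with the dendritic cell list and 0.83 with gastric epithelium. With the dendritic cell list r was 0.93 for Il2rb and 0.87 for Il2rg. The macrophage list summed to between 1035 and 1156 CPM in untreated and between 1195 and 2106 CPM in dual ICI mice at 3wk, without overlap. The part of these cell types in the receptor levels was not tested.

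Set against the summed level of Cd3d, Cd3e and Cd3g, the chains of the T cell receptor complex, the order of the groups changed, and it depended on which T cell genes were summed. At 3wk the ratio of Il2rb to this sum was 1.00 to 1.37 in untreated and 0.687 to 1.18 in dual ICI mice. At 5wk it was 0.709 to 1.33 in untreated, 0.869 to 1.08 in uncured and 0.627 to 1.15 in cured mice, so these groups overlapped where the levels themselves had not. Over the whole T cell list in place of the Cd3 genes, however, the cured mice stayed apart for Il2rb, at 0.158 to 0.187 against 0.258 to 0.41 in untreated and 0.32 to 0.382 in uncured mice. The ratio of Il21r to the sum still set the cured mice apart, at 0.295 to 0.333 against 0.576 to 1.18 in untreated and 0.711 to 0.875 in uncured mice, and over the whole T cell list at 0.0488 to 0.0839 against 0.173 to 0.387 and 0.262 to 0.31. For Il7r at 3wk the ratio was 0.571 to 1.07 in untreated and 0.222 to 0.450 in dual ICI mice, without overlap and in the opposite direction to its level, while over the whole T cell list it was 0.168 to 0.287 and 0.0835 to 0.189, which overlapped. For Jak3 it was 7.01 to 13.7 in untreated and 1.63 to 5.06 in dual ICI mice at 3wk. Over the whole list it was 2.00 to 3.17 and 0.684 to 1.64, without overlap on either scale. The level of Jak3 itself overlapped, while the sum of the T cell list did not. Stat5a, Il15ra and Il15, whose levels also overlapped, were apart on both scales too. For Stat5a the ratios were 5.36 to 11.0 and 1.12 to 3.56, and over the whole list 1.55 to 2.41 and 0.470 to 1.14. For Il15ra they were 2.25 to 5.82 and 0.780 to 1.40, and 0.644 to 1.28 and 0.328 to 0.454. Such a separation was thus not particular to Jak3. Cd3d itself was low, at 0.387 to 4.33 CPM over the 10 libraries at 3wk, which limits the precision of these ratios.

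Il15ra (chromosome 2, 11705290 to 11734317), the high-affinity IL-15 binding chain, differed little between groups. It ranged from 16.0 to 18.5 CPM in untreated and from 16.0 to 19.6 CPM in dual ICI mice at 3wk, with a log2 fold change of 0.03 ± 0.11 (edgeR adjusted p = 0.971). At 5wk it was 14.6, 18.1, 13.4, 14.2 and 14.1 CPM in untreated mice, 17.0 and 14.6 CPM in the uncured mice and 20.8, 18.7 and 20.1 CPM in the cured mice. Every cured mouse exceeded every untreated mouse, with untreated mouse 2 closest to them. Il15ra rose by 0.42 ± 0.15 in the cured against untreated mice (edgeR adjusted p = 0.0482), and in uncured against cured mice the log2 fold change was -0.34 ± 0.13 (edgeR adjusted p = 0.0375). These calls rest on the choice of samples and scaling. Against untreated mice the call held in 6 of 16 alternatives, and it was lost when cured mouse 2 (adjusted p = 0.142), 3 (0.104) or 4 (0.139) or untreated mouse 1 (0.0953), 3 (0.104) or 5 (0.101) was left out, while without untreated mouse 2 it was 0.00408. Against uncured mice it held in 5 of 12, and was lost without uncured mouse 5 (0.208) or cured mouse 2 (0.0692) or 4 (0.0944). In uncured against untreated mice the log2 fold change was 0.07 ± 0.20 (edgeR adjusted p = 0.91).

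Il15 (chromosome 8, 82331632 to 82403222), the cytokine that sustains NK cells and memory CD8 T cells and is also made by skeletal muscle, was higher in the cured mice, where Il2rg, Il2rb, Il7r and Il21r were lower. At 3wk it was 7.17, 9.83, 8.78, 7.42 and 7.18 CPM in untreated mice and 10.8, 8.53, 10.9, 8.11 and 7.56 CPM in dual ICI mice, which overlapped (log2 fold change 0.19 ± 0.16, edgeR adjusted p = 0.764). At 5wk it was 6.14, 9.01, 5.65, 8.47 and 3.76 CPM in untreated mice. The uncured mice had 5.38 and 5.37 CPM and the cured mice 24.5, 19.0 and 21.9 CPM. The cured mice thus had more than all tumor-bearing untreated and uncured mice, and the uncured mice lay inside the untreated range. Il15 rose in the cured against untreated mice by 1.73 ± 0.27 on the log2 scale (edgeR adjusted p = 0.00106), and in uncured against cured mice the log2 fold change was -2.03 ± 0.16 (edgeR adjusted p = 7.23e-06). In uncured against untreated mice it was -0.31 ± 0.35 (edgeR adjusted p = 0.782). With all 5 dual ICI mice against untreated mice it was 1.2 ± 0.48, the highest of the 8 genes in that comparison (edgeR adjusted p = 0.634, unadjusted p = 0.031), and the lowest was that of Il21r at -0.41 ± 0.80 (edgeR adjusted p = 0.807).

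Jak3 (chromosome 8, 71676296 to 71690575), the kinase bound to the gamma chain, had the sign of Il2rg in the comparisons by outcome at 5wk but not at 3wk. At 3wk it was 56.3, 43.4, 53.4, 63.7 and 52.6 CPM in untreated mice and 42.4, 45.2, 41.1, 40.8 and 61.8 CPM in dual ICI mice. Of the dual ICI mice 4 lay near or below the lowest untreated mouse and mouse 5 near the highest, with a log2 fold change of -0.21 ± 0.14 (edgeR adjusted p = 0.656). At 5wk it was 62.4, 51.0, 54.2, 54.2 and 53.6 CPM in untreated mice. The uncured mice had 75.6 and 62.4 CPM and the cured mice 36.1, 34.7 and 34.4 CPM. The cured mice lay below every untreated mouse, and uncured mouse 5 lay at the level of the highest untreated mouse. Jak3 fell in the cured mice by 0.64 ± 0.12 on the log2 scale relative to untreated mice (edgeR adjusted p = 0.00265). The log2 fold change was 0.31 ± 0.17 in uncured against untreated mice (edgeR adjusted p = 0.734) and 0.96 ± 0.10 in uncured against cured mice (edgeR adjusted p = 4.87e-05). In the interaction contrast, the effect of dual ICI at 5wk in uncured mice less its effect at 3wk, Jak3 had 0.54 ± 0.21 (unadjusted p = 0.0219, edgeR adjusted p = 0.707) and Il15 -0.48 ± 0.35 (edgeR adjusted p = 0.708). By edgeR, 0 of the 8 genes were called there (0.0% of 16542 genes tested, with 6.35% at an unadjusted p under 0.05, among them Jak3 alone of the 8), and by DESeq2 0 of the 8. Insl3, which overlaps Jak3 on the same strand, held between 20 and 124 counts per library against 585 to 2360 for Jak3, and reads shared between them cannot be assigned.

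Stat5a (chromosome 11, 100859351 to 100885169), a transcription factor activated by JAK1 and JAK3, varied little with treatment. It ranged from 34.9 to 41.3 CPM in untreated and from 28.1 to 46.9 CPM in dual ICI mice at 3wk, with a log2 fold change of 0.03 ± 0.12 (edgeR adjusted p = 0.971). At 5wk it was 34.97, 38.2, 34.7, 32.7 and 37.1 CPM in untreated mice, 36.7 and 31.6 CPM in the uncured mice and 40.9, 40.5 and 40.1 CPM in the cured mice. The cured mice exceeded every untreated mouse by a small margin. The log2 fold change was 0.19 ± 0.12 in cured against untreated mice (edgeR adjusted p = 0.209), -0.07 ± 0.17 in uncured against untreated mice (edgeR adjusted p = 0.894) and -0.26 ± 0.10 in uncured against cured mice (edgeR adjusted p = 0.0464). The last call held in 3 of 12 alternatives and was lost when uncured mouse 5 (log2 fold change -0.16, adjusted p = 0.275) or cured mouse 2 (0.062), 3 (0.0699) or 4 (0.0916) was left out, and with DESeq2 (0.0574). Stat5a has a near-identical neighbour, Stat5b, and overlaps Stat3 on the other strand, and reads common to these genes make its level uncertain.

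Markers of tissue, and of neutrophils, also moved with Il15, Il15ra and Jak3. Across the 29 libraries, r of Il15 with the skeletal muscle list was 0.86, and 0.82 after group means were taken out. With the gastric epithelium list it was -0.89 and -0.73. Jak3 had the opposite signs, 0.82 and 0.75 with gastric epithelium and -0.71 and -0.52 with muscle. The neutrophil list followed as closely, with r of -0.89 and -0.72 for Il15 and 0.81 and 0.67 for Jak3. Il15ra had the signs of Il15, 0.70 and 0.59 with muscle and -0.67 and -0.59 with gastric epithelium. Untreated mouse 2 at 5wk, which had the highest muscle sum of its group at 322850 CPM, also had the highest Il15 of its group, 9.01 CPM, which was less than that of any cured mouse. The part of muscle, of tumor cells and of neutrophils in these levels was not tested.

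**Figure D3:**
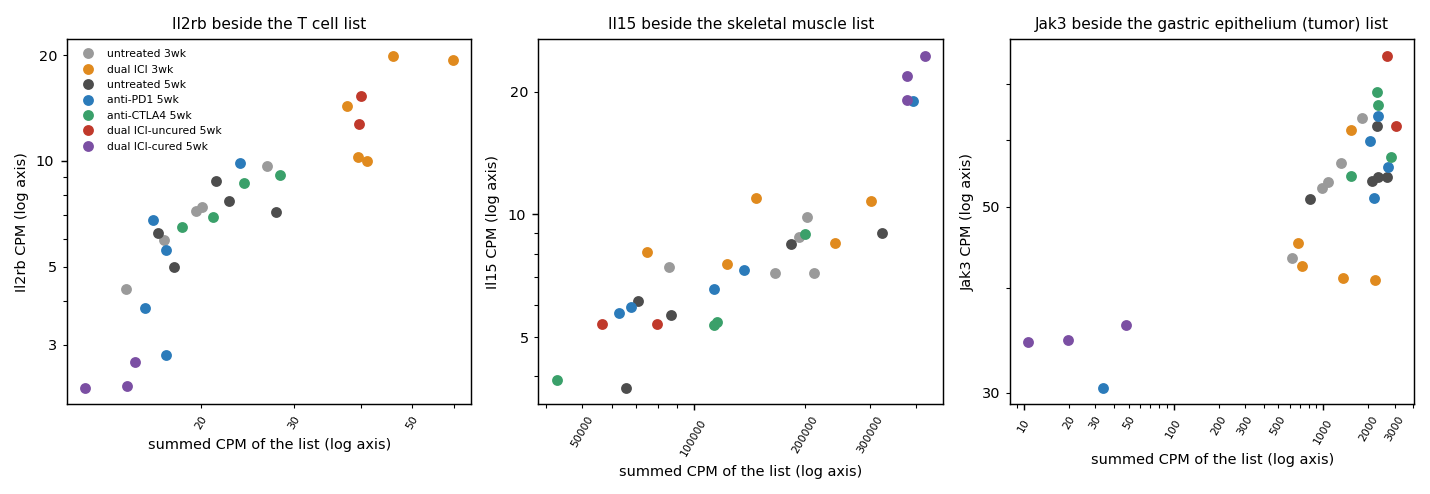
Level of Il2rb, Il15 and Jak3 in CPM against the summed CPM of a marker list in each of the 29 libraries, with both axes on a log scale and colors for the 7 groups. Il2rb lies along the T cell list (r = 0.89), Il15 is highest in the 3 cured mice and anti-PD1 mouse 5, which also have the highest muscle sums, and Jak3 is lowest in the same 4 libraries, which have the lowest gastric epithelium sums.

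Neither monotherapy gave a call among the 8 genes. With anti-PD1 against untreated mice at 5wk, 0 of the 8 genes were called by edgeR or DESeq2 (0.0% of 15640 genes by edgeR), and 0 of the 8 had an unadjusted p under 0.05, as had 1.31% of all genes. The log2 fold changes ran from -0.44 ± 0.36 for Il21r to 0.42 ± 0.38 for Il15. The value for Il15 came from anti-PD1 mouse 5, which had 19.0 CPM against 7.28, 5.71, 5.94 and 6.54 CPM in the other anti-PD1 mice, and without it the log2 fold change was -0.07. Anti-PD1 mouse 5 also had the lowest level of its group for Il2rb (2.81 CPM), Il7r (2.24 CPM), Il21r (2.39 CPM) and Jak3 (30.4 CPM), and its highest for Il15ra (19.9 CPM), while its Il2rg (18.5 CPM) lay within the group. Whether this mouse was the cured mouse of its group is not given in the labels. With anti-CTLA4, 0 of the 8 genes were called by edgeR or DESeq2 (0.0% of 15781 genes by edgeR), 0 had an unadjusted p under 0.05 (0.811% of all genes), and the log2 fold changes ran from -0.18 ± 0.31 for Il15 to 0.29 ± 0.27 for Il21r.

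Ordered by mean level, the dual ICI mice at 3wk and the uncured mice at 5wk were the 2 highest of the 7 groups for Il2rg, Il2rb and Il21r. They overlapped each other, and the lower of them did not overlap the group that came next. For Il7r, the uncured mice at 5wk were highest (9.26 ± 1.86 CPM, SD, n = 2), and all neighbours in the order overlapped. The cured mice were lowest for these 4 receptors and for Jak3. They did not overlap the next group for Il2rg, Il2rb, Il21r and Jak3, but did for Il7r. For Jak3 they lay inside the range of the anti-PD1 mice, whose mouse 5 was lower still at 30.4 CPM. For Il15 they were highest (21.8 ± 2.72 CPM, SD, n = 3) and did not overlap the next group, dual ICI at 3wk (9.18 ± 1.57 CPM, SD, n = 5). All neighbouring groups overlapped for Il15ra and Stat5a.

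Untreated mice at 5wk and at 3wk were alike in most of the 8 genes. Here 0 of the 8 were called (10.8% of 15604 genes tested) and 1 had an unadjusted p under 0.05 (30.1% of all genes). That gene was Il2rg, with 16.0 ± 1.70 CPM (SD, n = 5) at 5wk and 20.7 ± 2.28 CPM (SD, n = 5) at 3wk, without overlap. Its log2 fold change was -0.37 ± 0.12 (edgeR adjusted p = 0.061), with a call by DESeq2 (0.0163) and by edgeR without untreated mouse 2 at 5wk (0.048). The highest value in this comparison was 0.40 ± 0.24 for Il7r (edgeR adjusted p = 0.291).

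Among the 28 pairs of the 8 genes, the 6 pairs of Il2rg, Il2rb, Il7r and Il21r had Pearson's r of log2 CPM from 0.50 to 0.92 across the 29 libraries, and from 0.38 to 0.80 after group means were taken out. Il15 and Il15ra, a cytokine and the chain that presents it, had r = 0.78 and 0.72. Jak3 and Il2rg, whose proteins bind each other, had r = 0.17 and 0.03. Stat5a had no r with another of the 8 genes outside -0.52 to 0.37.

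Outside the 8 genes, those most alike in pattern over the 29 libraries were named by the highest Pearson's r. For Il2rb they were the T cell kinase Lck (0.96), Cd4 (0.96) and the transcription factor Irf8 (0.93). For Il21r they were the myeloid Fc receptor Fcgr4 (0.98), the B cell co-receptor Cd72 (0.96) and the integrin Itgae (0.95). For Il7r they were the inhibitory receptor Havcr2 (0.91), Chd3os (0.90) and Gsg2 (0.90). For Il2rg they were the leukocyte actin-bundling gene Lcp1 (0.94) and Clec4a3 (0.92). Il15 was most like Lyrm5 (0.93) and the mitochondrial genes Mrpl18 (0.92) and Sdhb (0.92), and Il15ra like Naa60 (0.87), Arhgef6 (0.86) and the interferon-induced Ifit3b (0.85). Jak3 was most like Trim46, Zfpm1 and Rin1 (0.92 each), and Stat5a reached only 0.73, with Ngfr, ahead of Chst7 (0.72) and Mc5r (0.71).

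Other genes of the pathway, and some of related receptors, were examined from a list of 15 ligands, receptor chains, kinases and STATs. Of this list, Il13ra1, Crlf2 and Tslp belong to receptors without the common gamma chain. The ligand genes Il2, Il9 and Il21 were at or near the limit of detection. Il9 had 0 counts in all 29 libraries, Il2 at most 3 counts, and Il21 at most 16 counts, in 11 libraries. Il7, the ligand of the IL-7 receptor, was 2.76 to 8.51 CPM in untreated mice at 5wk, 5.83 to 6.85 CPM in the uncured mice and 1.22 to 1.49 CPM in the cured mice, and it fell by 2.21 ± 0.37 on the log2 scale in cured against untreated mice (edgeR adjusted p = 0.00167). In that comparison 3 of the 11 genes tested were called, 2 lower and 1 higher, against 44.7% of all genes. The other 2 were Il13ra1, a chain of the IL-4 and IL-13 receptor, which fell by 1.47 (adjusted p = 0.00246), and Jak1, which rose by 0.51 (adjusted p = 0.0423). The call of Jak1 held in 7 of 16 alternatives and was lost without cured mouse 2 (adjusted p = 0.101), 3 (0.129) or 4 (0.117) or untreated mouse 1 (0.0796), 3 (0.0783) or 5 (0.0667). Stat5b, which is not told apart from Stat5a where their reads are shared, was 491 to 567 CPM in the cured, 152 to 554 CPM in untreated and 138 to 149 CPM in the uncured mice at 5wk. Its log2 fold change was 1.06 in cured against untreated mice, not called except by DESeq2 (0.0238), in the fit of all 29 libraries (0.0334) or without untreated mouse 2 (1.61, adjusted p = 3.04e-05), and -1.89 in uncured against cured mice (edgeR adjusted p = 1.99e-06). Between uncured and cured mice 8 of 12 genes tested were called, 6 higher and 2 lower, against 70.0% of all genes, so this count was near the background. At 3wk 0 of 12 were called between dual ICI and untreated mice, and the median log2 fold change of the 12 was 0.15 against 0.02 over all genes tested. Between untreated mice at 5wk and 3wk 3 of 11 were called (10.8% of all genes), namely Il7 (log2 fold change 0.95, adjusted p = 0.0482), Jak1 (-0.54, 0.0336) and Tslp (-1.23, 0.0491). These held in 7, 11 and 7 of 18 alternatives, with adjusted p-values up to 0.111, 0.0854 and 0.109, and were lost without any 1 of most of the 10 mice.

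Of 12 genes that STAT5 or cytokine feedback is known to induce, 7 fell and 0 rose in cured against untreated mice, a comparison in which 44.7% of all genes were called and 4219 of 15816 were lower. They were the oncogene Myc (fell by 1.88, edgeR adjusted p = 0.000318), the cyclin Ccnd2 (fell by 1.79), the feedback inhibitors Socs3 (fell by 1.39) and Socs1 (fell by 0.80), the survival gene Bcl2 (fell by 1.32), the cytokine Osm (fell by 1.21) and the kinase Pim1 (fell by 0.48), all on the log2 scale. The calls of Osm (8 of 15 alternatives), Socs1 (13 of 16) and Pim1 (13 of 16) were lost without cured mouse 2 (adjusted p = 0.128, 0.0633 and 0.0777), those of Osm and Pim1 also without cured mouse 3 (0.12 and 0.0877), that of Socs1 without cured mouse 4 (0.0583), and that of Osm without untreated mouse 1 (0.07), 3 (0.0616), 4 (0.0601) or 5 (0.0592). Cish, the feedback inhibitor most closely tied to STAT5, was not among them, with 28.5 to 39.4 CPM in the cured and 12.8 to 84.6 CPM in untreated mice. Several of these genes are also expressed by tumor and stromal cells. In this comparison the gastric epithelium list was called lower in 9 of its 9 genes tested, the neutrophil list in 5 of 5 and the macrophage list in 0 of 7. The part of any cell type in the levels of the target genes was not tested. Between uncured and cured mice 7 of the 12 were called higher, where 70.0% of all genes were called in either direction, and Cish was called lower (log2 fold change -0.73, edgeR adjusted p = 0.0114), a call that was lost without uncured mouse 1 (-0.46, adjusted p = 0.0783) and in the fit of all 29 libraries (0.355). At 3wk 0 of the 12 were called. The highest values were 1.01 for Cish and 0.61 for Socs1, and the median of the 12 was 0.19 against 0.02 over all genes tested.

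**Figure D4:**
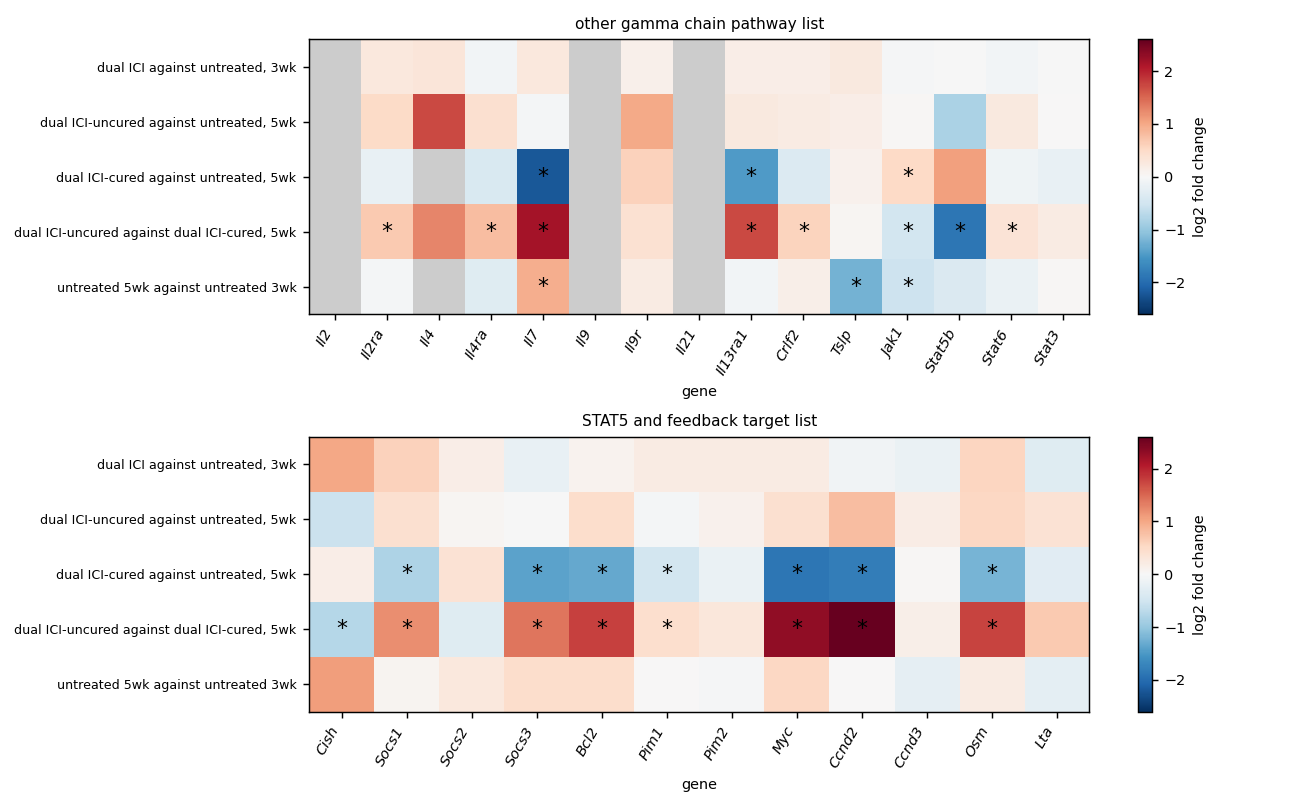
log2 fold change (color) of the list of other pathway and related genes and of the target genes in 5 comparisons. Asterisks mark an edgeR adjusted p under 0.05, and grey marks genes that did not pass the filter on low counts. In cured against untreated mice 3 genes of the first list and 7 target genes carry an asterisk. In dual ICI against untreated mice at 3wk none of either list does.

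Markers of some other cell types in the tissue divided the cured from the untreated mice at 5wk, and others did not. In cured against untreated mice, where 44.7% of all genes were called, the neutrophil list was called lower in 5 of 5 genes. The T cell list was called lower in 5 of 8, but 2 of the 8 had a log2 fold change above 0. The CD8 T cell list (0 of 2), the macrophage list (0 of 7) and the B cell list (0 of 4) gave no call. The cured mice lay inside the untreated range for the macrophage list (712 to 794 against 508 to 1254 CPM), the B cell list (3.20 to 5.56 against 1.87 to 9.39 CPM) and the regulatory T cell list (11.6 to 13.8 against 11.0 to 19.6 CPM). Genes of the regulatory T cell list differed from each other, however. Of its 2 genes tested, 1 was called lower in cured against untreated mice, and the other had a log2 fold change above 0. The NK cell list, whose cells carry Il2rb, summed to between 0.732 and 1.34 CPM in the cured mice, to between 1.99 and 3.46 CPM in untreated mice and to 4.23 and 5.31 CPM in the uncured mice at 5wk, and r of Il2rb with it was 0.92. Of this list, 2 of the 3 genes tested fell in cured against untreated mice, and its gene Klra8 had 0 counts in every library. The part of these cells in the receptor levels was not tested.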

How the data were processed

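RNA of peritoneum from 29 mice (TRIzol and RNeasy, NEBNext Ultra II libraries) was aligned by the authors, per the labels' processing notes, to mm10 with STAR 2.7.0f and counted per gene with featureCounts 1.6.4. The study's methods name ISOGEN for the RNA, another STAR version and HTSeq, and which of these lie behind the table is not settled. The annotation and strand setting are not given in the sources used here. The deposited values are raw counts of 24421 symbols, and 0 columns were unmapped. Libraries held 25989217 to 31219650 counts (median 28625462).

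Each comparison was fitted on its own groups with edgeR 4.0.16 (R 4.3.3, TMM, filterByExpr, glmQLFit, glmQLFTest, two-sided, Benjamini-Hochberg over all genes tested, adjusted p under 0.05), tested first on simulated data. DESeq2 1.42.0, other scalings and filters, each library left out, all libraries in 1 fit and a replicate block were alternatives. CPM for correlations used a prior count of 2. Coordinates and exon lengths are from GENCODE vM21 (GRCm38), which matched 23376 symbols. Named genes were the 8 genes, the lists, and for each of the 8 genes the 3 genes most alike in r among those with a mean of at least 1 CPM. Among the genes most alike to Il2rg, 1 is not reported here. Outcomes at 5wk came from mouse numbers in the study's text. The 8 genes and the lists were chosen with earlier results of these data known, and are not independent support for any direction. P-values measure the spread between mice, within 1 run except where 3wk and 5wk are compared.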

Additional observations from a re-analysis of the deposited data

Results flagged for a closer look

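Of 40 combinations of a gene and a group of 4 or 5 mice, 6 held a mouse far from the rest of its group. Chance gives about 1 in 20 for a single combination, but the combinations share mice and correlated genes, so the 6 are not independent. Il15ra was 18.1 CPM in untreated mouse 2 at 5wk, the highest of its group, and 19.9 CPM in anti-PD1 mouse 5, the highest of its group. The latter mouse also had 19.0 CPM of Il15, far above the other anti-PD1 mice. Jak3 was 61.8 CPM in dual ICI mouse 5 at 3wk and 62.4 CPM in untreated mouse 1 at 5wk, each the highest of its group. Stat5a was 29.6 CPM in anti-CTLA4 mouse 1, the lowest of its group. Its gap to the next mouse, 0.8292 of the range of its group, only just passed the cutoff of 0.829. For Jak3 in untreated mouse 1 the gap was 0.716 against a cutoff of 0.71.

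All 8 genes differed between the outcomes under the same treatment at 5wk, in a direct comparison of uncured with cured mice, in which 70.0% of all genes were called and 81.1% did not overlap. The log2 fold change was 2.53 for Il2rb, 1.39 for Il2rg, 2.31 for Il7r, 3.63 for Il21r and 0.96 for Jak3, all higher in the uncured mice. It was -0.34 for Il15ra, -2.03 for Il15 and -0.26 for Stat5a, all lower in the uncured mice. The call of Il15ra held in 5 of 12 alternatives and that of Stat5a in 3 of 12, not with DESeq2.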

How the results depend on the processing

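Over the alternatives for those log2 fold changes of the 8 genes that the report prints, 634 kept their direction and side of the threshold, 28 kept only the direction and lost a call, 10 gained one and 6 turned sign. None that turned had been called. Uncalled values that are not printed turned sign too, among them Il2rb over all 5 dual ICI mice (0.01, and between -0.49 and 0.23 without 1 mouse). For dual ICI against untreated mice at 3wk, DESeq2 called 3 of the 8 genes, the fit of all 29 libraries 1, the replicate block 3, and fits without 1 mouse between 0 and 1. For cured against untreated mice the replicate block called 4, with Il2rg (adjusted p = 0.123), Jak3 (0.073) and Il15ra (0.273) lost. For untreated mice at 5wk against 3wk, DESeq2 called 1 and fits without 1 mouse between 0 and 1. The cause of these changes was not tested.

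Leaving out 1 mouse gave, at 3wk under dual ICI, -0.028 to 0.059 for Il15ra (lowest without dual ICI mouse 4) and -0.035 to 0.12 for Stat5a (without dual ICI mouse 2). In uncured against untreated mice it gave -0.029 to 0.16 for Il15ra (without uncured mouse 1) and -0.17 to 0.0199 for Stat5a (highest without uncured mouse 5). In anti-PD1 against untreated mice it gave -0.066 to 0.57 for Il15 (lowest without anti-PD1 mouse 5). With the replicate block, Il15 in uncured against untreated mice was 0.16.

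Some mice that share a number deviated together and others did not (r from -0.65 to 0.70, and in no comparison over 0.1 for every pair), so the replicate block pairs them by number only, and it changed no call of the 8 genes beyond those above. No paired analysis was possible because no numbers are shared between uncured and cured mice, and none was made for the interaction.

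Over the whole T cell list in place of the Cd3 genes, the log2 ratio of dual ICI to untreated mice at 3wk moved from -0.52 to -0.12 for Il2rb, from -1.26 to -0.86 for Il7r and from -0.42 to -0.016 for Il21r.

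Over all genes, calls at 3wk numbered 89 by edgeR, 492 by DESeq2, 209 with the block and between 6 and 119 without 1 mouse. DESeq2 called 45 genes over all 5 dual ICI mice, 17 in the uncured mice and 1 for the interaction, where edgeR called 0. For cured against untreated mice edgeR called 7067 genes, 4016 with the block, and between 4491 (without cured mouse 3) and 9388 (without untreated mouse 2) without 1 mouse. For untreated mice at 5wk against 3wk it called 1687, DESeq2 3127, and fits without 1 mouse from 654 to 4915. The uncured group has 2 mice and the cured group 3, and depth limits Il21r most, at 12 to 25 counts in cured mice.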
